A study of Mus musculus with 13 samples.

Results

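The 9 genes described here encode immunoglobulin constant regions, the partners of antibody secretion and the receptor that carries IgA into bile. They were chosen by name from the 53465 genes counted in mouse liver, and comprise the heavy-chain constant genes *Ighm*, *Igha* and *Ighg2b*, the light-chain constant genes *Igkc*, *Iglc1* and *Iglc2*, the plasma cell genes *Jchain* and *Mzb1*, and *Pigr*. RNA came from the livers of 6 WT and 7 *Nod2*-/- male mice, 1 library per mouse. Mice of both genotypes were on the BALB/c background, an inbred strain, received DMBA, a chemical carcinogen, and were kept on a high-fat diet (HFD). The labels give an age of 30 weeks and 30 weeks of diet, and the study's own text gives a slightly longer time on the diet. *Nod2* encodes an intracellular sensor of bacterial cell wall fragments, and the *Nod2*-/- mice carry a deletion of both copies. WT and *Nod2*-/- mice were not littermates, so genotype and breeding line cannot be told apart. The study reported more liver tumors and more weight gain in male *Nod2*-/- than in male WT mice under this treatment. The labels give neither tumors nor weight for single mice, so these cannot be told apart from genotype either.

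An antibody is built from paired heavy and light chains, and the heavy-chain constant region sets its class, IgM, IgD, IgG, IgE or IgA. Plasma cells secrete IgM and IgA as polymers held together by the J chain, and the polymeric immunoglobulin receptor (Pigr) binds these polymers and carries them across epithelial cells. In rodents hepatocytes express Pigr and pass dimeric IgA from blood into bile, so that the liver holds both ends of this route, the transporter in hepatocytes and a small number of antibody-secreting cells.

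The J chain attaches to a short tail at the end of the secreted heavy chains of IgM and IgA. The last 60 coding bases of the secreted forms are shown because they are where the classes that Pigr carries differ from IgG. Capitals mark the second-last codon where it encodes a cysteine, the residue through which the tail is linked. They were read from the GRCm38 genome with GENCODE annotation, from the minus strand, at chr12:113420870-113420929 for *Ighm*, chr12:113258771-113258830 for *Igha* and chr12:113306392-113306451 for *Ighg2b*.
*Ighm*: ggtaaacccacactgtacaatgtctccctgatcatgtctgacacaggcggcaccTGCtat
*Igha*: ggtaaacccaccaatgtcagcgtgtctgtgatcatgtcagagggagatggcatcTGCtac
*Ighg2b*: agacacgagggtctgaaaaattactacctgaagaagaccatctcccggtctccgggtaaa
The *Ighm* and *Igha* ends were identical at 41 of 60 bases, compared without gaps, and both carry the cysteine codon. Set end to end, the *Ighg2b* sequence matched *Ighm* at 25 bases and *Igha* at 12, and its second-last codon is not a cysteine codon. The *Ighg2b* sequence stops at the bases ggtaaa with which the *Ighm* and *Igha* sequences begin. These matches therefore do not compare like stretches, and the tail itself has no part of *Ighg2b* beside it.

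The lambda light chains show how far the counts of single genes can be separated. *Iglc2* and *Iglc3* were identical at 303 of 314 compared coding bases (96.5%), whereas *Iglc1* matched *Iglc2* at 74.8%. The 60-base coding stretch with the most differences between *Iglc2* (chr16:19198776-19198835) and *Iglc3* (chr16:19065605-19065664), both on the minus strand, is shown with the 5 differing bases in capitals.
*Iglc2*: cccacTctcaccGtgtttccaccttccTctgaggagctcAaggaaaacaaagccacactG
*Iglc3*: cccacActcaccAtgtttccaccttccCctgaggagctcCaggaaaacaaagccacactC
Reads were 43 bases long, and 89.3% of the 43-base windows of *Iglc2* transcripts were unique to that gene among all annotated transcripts. The unique share was 100% for *Ighm*, *Igha*, *Igkc*, *Iglc1* and *Jchain*, 99.5% for *Pigr* and 94.5% for *Ighg2b*. *Mzb1* stood apart with 45.9%, since an overlapping annotated transcript shares the rest, so its counts are uncertain.

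Depth ran from 14886273 to 20579984 counts per WT library and from 13824780 to 19391431 per *Nod2*-/- library. *Nod2* itself had 0 to 4 counts in WT and 1 to 6 in *Nod2*-/- livers, too few to check the genotype labels. The summed normalized counts of 15 lung epithelium markers ranged from 492 to 4230 in WT and from 473 to 1349 in *Nod2*-/- mice. Among WT mice they were highest in replicates 4, 2 and 3. Within this sum *Hopx* had means of 502 in WT and 671 in *Nod2*-/- mice, and *Sftpc* 643 and 74.3. The same 3 WT mice were highest in *Sftpc* (1786, 1103 and 559). The summed normalized counts of 14 neutrophil markers ranged from 233 to 2245 in WT and from 1157 to 71693 in *Nod2*-/- mice. The top value was in *Nod2*-/- replicate 7. Most of this sum was *Lcn2*, with means of 779 in WT and 11283 in *Nod2*-/- mice. None of the 8 lung and 6 neutrophil markers tested passed 5% FDR by edgeR, but 6 of 8 lung markers were lower and 6 of 6 neutrophil markers higher in *Nod2*-/- mice at an unadjusted p under 0.05. DESeq2 also tested markers that edgeR's filter removed. By DESeq2 7 of the 15 listed lung markers passed as lower and 7 of the 14 listed neutrophil markers as higher in *Nod2*-/- mice. Of all tested genes, 10.2% were lower and 12.9% higher at the unadjusted p by edgeR. By DESeq2 3.45% of all genes passed as lower and 3.81% as higher. A normalized count is the count a library would have had at the average depth after TMM scaling. In whole liver, fewer cells of a type and less RNA per cell cannot be told apart.

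None of the 9 genes passed the 5% false discovery rate (FDR) in edgeR's quasi-likelihood test, adjusted by the Benjamini-Hochberg method over 13545 tested genes, of which 1.16% passed (0.65% higher and 0.509% lower in *Nod2*-/- mice). At an unadjusted p under 0.05 there were 3 members, *Igha* and *Ighg2b* with positive and *Pigr* with negative estimates, where 23.1% of all tested genes stood (12.9% higher and 10.2% lower). By DESeq2, another count test, 2 members passed 5% FDR, *Igha* higher and *Pigr* lower in *Nod2*-/- mice, against 7.26% of 15892 genes (3.81% higher and 3.45% lower). The median log2 fold change of the 9 members was 0.07, and that of all tested genes was 0.02. The values of the genotypes overlapped for every member, and 1.44% of all tested genes did not overlap.

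**Figure D1:**
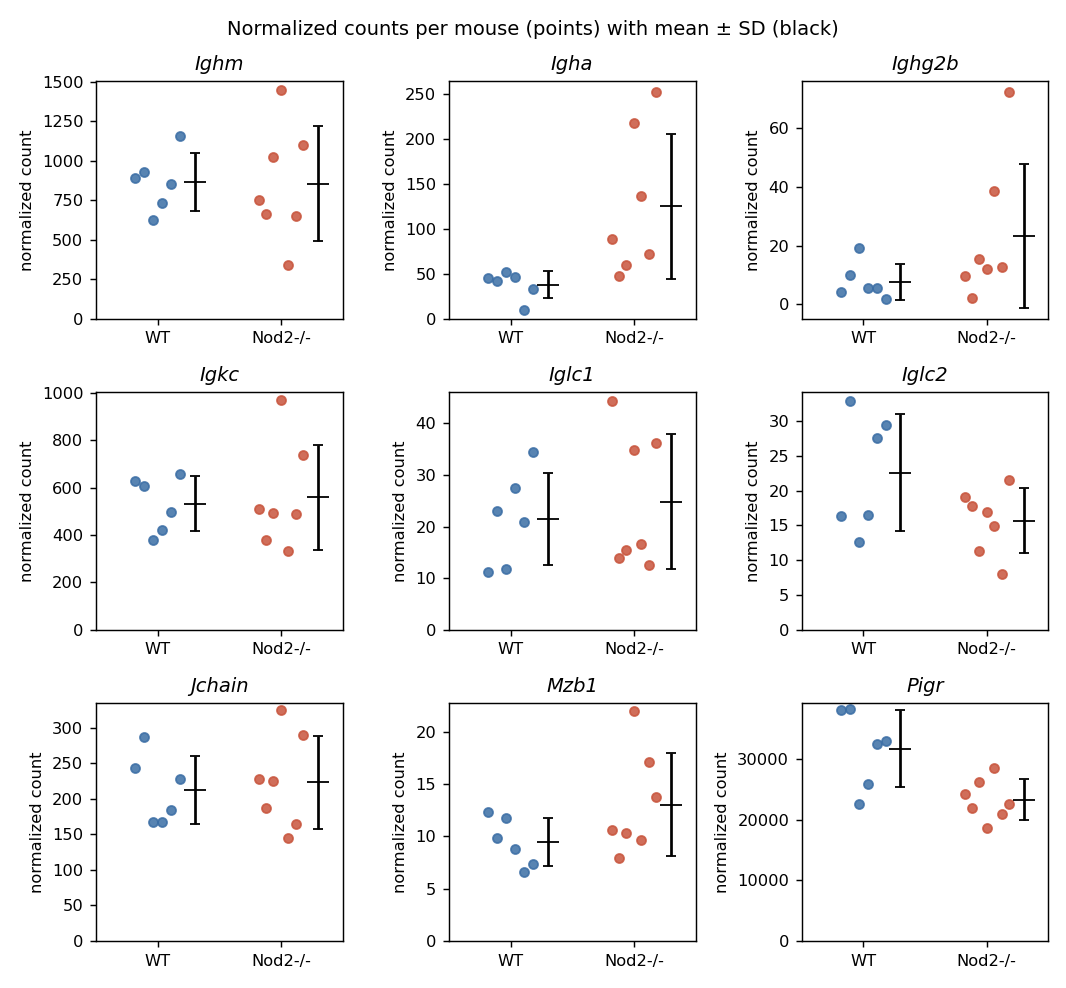
Normalized counts of the 9 genes (y axis, linear, 1 panel per gene) in 6 WT and 7 Nod2-/- mice (points), with the mean ± SD of each genotype in black. The Igha points of 6 Nod2-/- mice lie above all WT points, 3 Nod2-/- mice lie below all WT mice for Pigr, and the other genes overlap widely.

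*Igha*, the constant region of IgA, had the largest estimate among the members. Its normalized counts ran from 9.94 to 51.5 in WT mice (median 43.4) and from 47.6 to 253 in *Nod2*-/- mice (median 88.8). All but 1 of the 7 *Nod2*-/- mice lay above every WT mouse, so the groups overlapped only through *Nod2*-/- replicate 2 and WT replicate 3. The means were 38.0 ± 15.0 (SD, n = 6) and 125 ± 81.3 (SD, n = 7), a ratio of 3.30. The log2 fold change was 1.72 ± 0.43 (SE, 95% interval 0.79 to 2.64), with an unadjusted p of 0.00128 and an adjusted p of 0.0624 by edgeR. The adjusted p was 0.00328 by DESeq2 (log2 fold change 1.70) and ranged from 0.0366 to 0.144 by edgeR when single mice were left out. *Igha* is among the genes that the study listed as changed in these same livers, so its direction here is not independent evidence. The 3 *Nod2*-/- mice with the highest *Igha* counts, replicates 7, 4 and 5, were also the 3 with the highest summed neutrophil markers (71693, 17355 and 4158). That sum is mostly *Lcn2*. By the neutrophil markers *S100a8* and *S100a9*, replicate 6 (92.2 and 195) was above replicate 4 (74.8 and 162). Replicates 7 (4776 and 7379) and 5 (144 and 295) were the highest. The part of neutrophil markers in the *Igha* result was not tested. *Igha* (ENSMUSG00000095079.6) lies on chromosome 12, 113254830 to 113260236, on the minus strand of GRCm38.

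*Ighg2b*, the constant region of IgG2b, was detected at low counts. WT mice had 2 to 21 counts and *Nod2*-/- mice 2 to 74, with normalized medians of 5.50 and 12.5. The highest *Nod2*-/- values, 72.5 in replicate 7 and 38.7 in replicate 5, were above every WT mouse, and the other 5 mice fell within the WT range of 1.64 to 19.0. The log2 fold change was 1.60 ± 0.68 (SE, 95% interval 0.15 to 3.05, edgeR adjusted p = 0.180).

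The remaining heavy-chain classes were sparser than IgM and IgA. *Ighg1*, the IgG1 constant gene, was the only other constant gene that edgeR's filter kept, with 2 to 20 counts in WT and 1 to 69 in *Nod2*-/- mice. Of the 7 *Nod2*-/- mice, 4 lay above all WT mice and 1 below, and its log2 fold change was 2.04 ± 0.72 (SE, adjusted p = 0.122 by edgeR and 0.0475 by DESeq2). *Ighg2c* summed to 4 counts over all WT and 33 over all *Nod2*-/- mice, *Ighg3* to 11 and 55, and *Ighd*, the constant gene of IgD on naive B cells, to 31 and 73. With no filter on low counts none of these 3 genes passed, at edgeR adjusted p = 0.109, 0.265 and 0.309. *Ighe*, the IgE gene, had at most 2 counts in any mouse and was not detectable at this depth. BALB/c mice carry an IgG2a gene in place of *Ighg2c*, so the counts on *Ighg2c* may miss or divide reads of that class.

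*Ighm*, the IgM constant region, was by far the most counted heavy-chain gene and did not pass the test. It ranged from 623 to 1159 normalized counts in WT mice (median 870) and from 341 to 1448 in *Nod2*-/- mice (median 753). The *Nod2*-/- mice spread beyond the WT mice on both sides, with replicate 5 lowest and replicate 4 highest. The log2 fold change was -0.02 ± 0.26 (SE, 95% interval -0.56 to 0.53, edgeR adjusted p = 0.976).

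**Figure D2:**
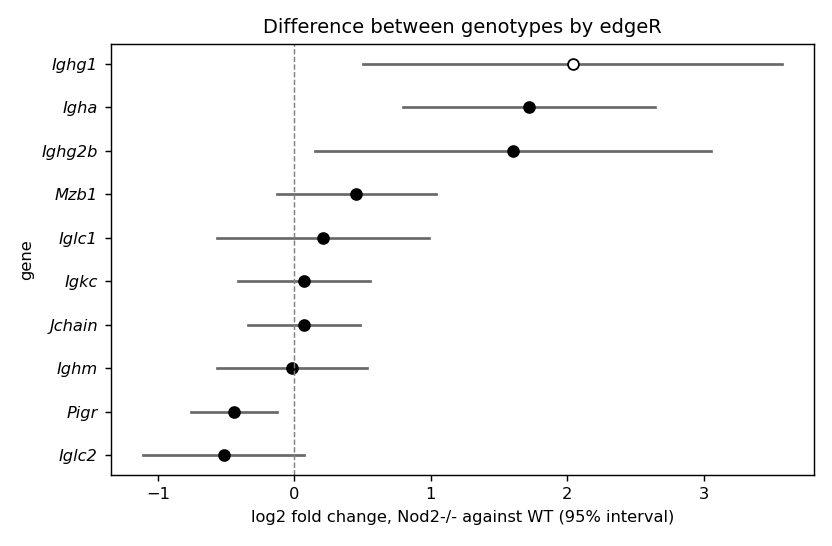
Log2 fold change of Nod2-/- against WT mice by edgeR (x axis) with its 95% interval (lines) for the 9 members (filled) and Ighg1 (open), ordered by size. The intervals of Ighg1, Igha and Ighg2b lie above 0, that of Pigr lies below 0, and the other 6 include 0. The intervals are not adjusted for the number of genes.

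The share of each class among the heavy-chain constant counts of a library does not depend on library size. IgM made up 86.9% to 97.6% of heavy-chain constant counts in WT mice (median 93.6%) and 58.3% to 91.7% in *Nod2*-/- mice (median 83.4%). The IgA share ran from 1.14% to 7.19% in WT mice (median 4.47%) and from 5.27% to 23.5% in *Nod2*-/- mice (median 10.3%). It lay above every WT mouse in 5 of 7 *Nod2*-/- mice, with replicates 2 and 3 inside the WT range.

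The mean IgA share was 4.29% ± 2.13 (SD, n = 6) in WT and 11.9% ± 6.28 (SD, n = 7) in *Nod2*-/- mice, a difference of 7.63 percentage points (two-sided exact permutation test over 1716 splits, p = 0.00874, or 0.0175 adjusted over the 2 shares tested). The smallest p that 6 against 7 mice allow is 0.000583. The extremes rested on few counts, and the 95% Wilson intervals, which cover counting error only, were 0.601% to 2.15% in WT replicate 5 and 20.4% to 26.8% in *Nod2*-/- replicate 5. Without the 3 WT mice highest in lung markers the difference was 9.03 points (exact permutation p = 0.0333, adjusted p = 0.0667). Without WT replicate 5 or WT replicate 6 the exact permutation test lost its call (adjusted p = 0.0556 and 0.0505), at 7.33 points in the latter case. This test reads *Igha* again, in the mice in which it was already known to be higher.

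Share and level ordered the mice differently. *Nod2*-/- replicate 5 had the highest IgA share of all mice, 23.5%, with an *Igha* level of 137, which was below those of replicates 4 and 7, and it had the lowest *Ighm* level, 341. *Nod2*-/- replicate 4 had 218 normalized counts of *Igha* with an IgA share of 12.6%, since its *Ighm* was the highest of all mice. The 4 IgG genes together took 1.01% to 5.17% of heavy-chain counts in WT mice, beside 0.684% to 16.8% in *Nod2*-/- mice. The IgG share was above all WT mice in 3 *Nod2*-/- mice, replicates 5, 7 and 6, and below all of them in replicate 2.

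**Figure D3:**
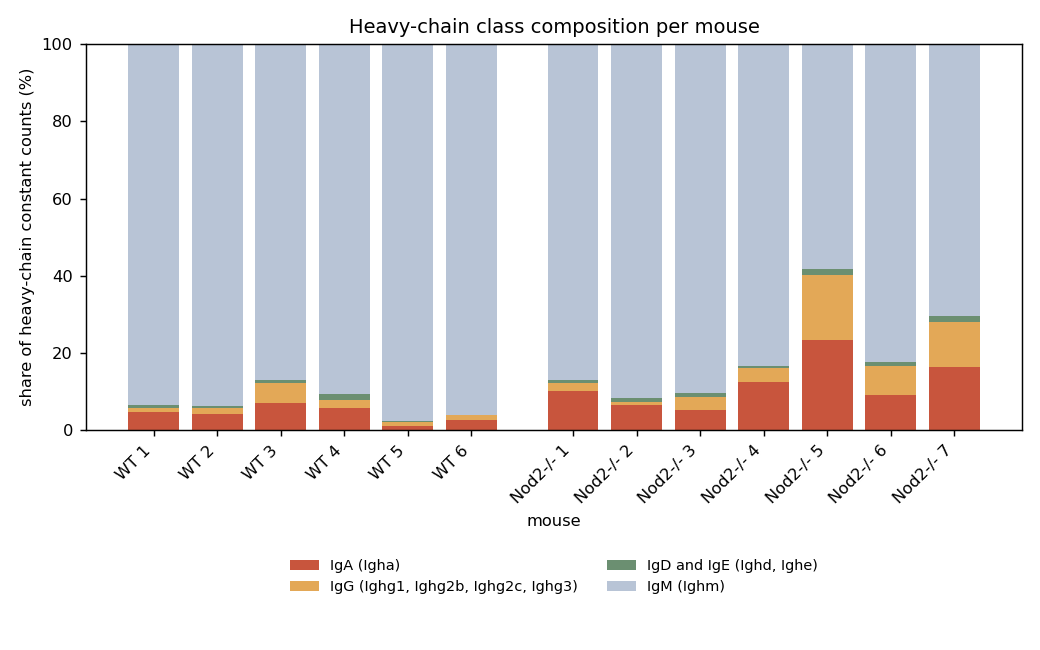
Share of each heavy-chain class (y axis, percent of the summed counts of 8 heavy-chain constant genes) in each mouse, stacked from IgA at the base to IgM at the top. IgA reaches at most 7.19% in WT mice and 23.5% in Nod2-/- replicate 5, and IgM is the largest class in every mouse.

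None of the light-chain constant genes passed the test. *Igkc*, the single kappa constant gene, had 379 to 656 normalized counts in WT mice (median 552) and 332 to 970 in *Nod2*-/- mice (median 492), with a log2 fold change of 0.07 ± 0.23 (SE, edgeR adjusted p = 0.874). *Iglc1* ranged from 11.3 to 34.4 in WT and from 12.5 to 44.4 in *Nod2*-/- mice (log2 fold change 0.21 ± 0.36, SE, edgeR adjusted p = 0.762). *Iglc2* ranged from 12.7 to 32.9 in WT and from 7.97 to 21.6 in *Nod2*-/- mice, where 2 mice lay below all WT mice (log2 fold change -0.52 ± 0.28, SE, edgeR adjusted p = 0.273).

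Since *Iglc2* and *Iglc3* share most of their sequence, the lambda genes were also summed. *Iglc1*, *Iglc2* and *Iglc3* together made up 4.96% to 10.5% of light-chain constant counts in WT mice, beside 5.07% to 12.2% in *Nod2*-/- mice. The means were 8.53% ± 2.25 (SD, n = 6) and 7.82% ± 2.55 (SD, n = 7), which differed by less than the spread among mice (two-sided exact permutation test, p = 0.601, adjusted p = 0.601). *Iglc4* had 1 count in all mice.

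Variable segments are the rest of the same transcripts. Of 346 variable segments in the table, 180 had a count in at least 1 mouse, and edgeR's filter kept 5 of them. None of the 12 tested variable and constant segments passed 5% FDR by edgeR. At an unadjusted p under 0.05 there were 3, the constant genes *Igha*, *Ighg2b* and *Ighg1* described above, where 23.1% of all tested genes stood. By DESeq2 2 constant genes passed in the higher direction (*Igha*, *Ighg1*) and 1 variable segment, *Igkv19-93*, in the lower direction. Over all genes these DESeq2 shares were 3.81% higher and 3.45% lower. *Igkv19-93* was named after its values were seen, and it was the most counted kappa segment of WT replicate 4.

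Single kappa segments were prominent in single mice. The most counted segment, *Igkv5-39*, had 83 counts in WT replicate 1 and 68 in *Nod2*-/- replicate 4, and 2 to 32 in the other 11 mice. *Igkv5-39* took 26.8% of kappa variable counts in WT replicate 1 (95% Wilson interval 22.2% to 32.0%) and 20.1% in *Nod2*-/- replicate 4 (16.1% to 24.6%). In the remaining mice the top kappa segment took 6.25% to 22.8%, the latter for *Igkv19-93* in WT replicate 4. The next 4 segments by mean count were *Iglv1*, *Igkv10-96*, *Igkv8-27* and *Igkv1-135*, with edgeR adjusted p-values of 0.592, 0.974, 0.483 and 0.772. Thinned to 128 kappa variable counts per mouse, the lowest total, libraries held 35.0 to 46.7 different segments in WT mice, beside 40.3 to 52.0 in *Nod2*-/- mice.

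**Figure D4:**
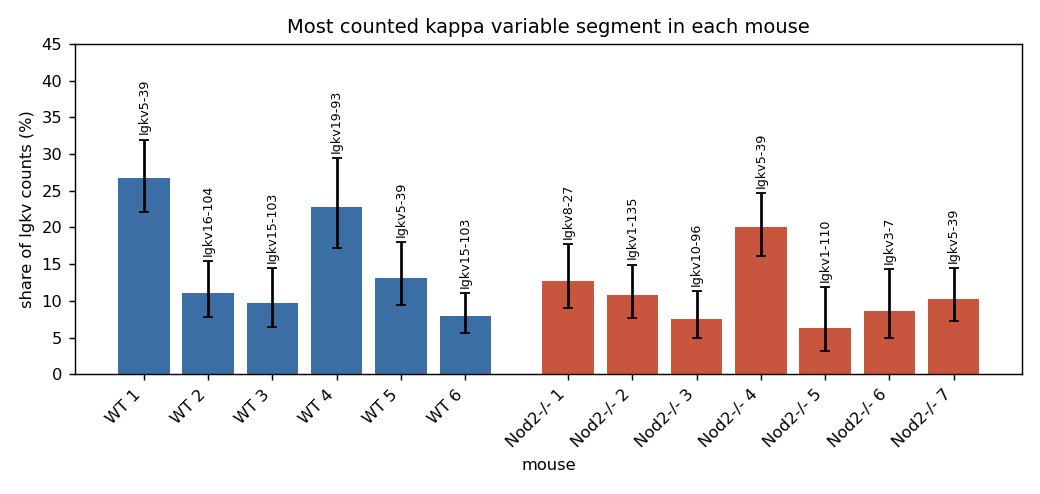
Share of kappa variable (Igkv) counts taken by the most counted segment (y axis, percent, with 95% Wilson intervals for counting error) in each WT (blue) and Nod2-/- (red) mouse, with the segment named above the bar. The tallest bars are WT replicates 1 and 4 and Nod2-/- replicate 4, at 26.8%, 22.8% and 20.1%.

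*Jchain*, which links IgM and IgA polymers, did not pass the test either. It ranged from 167 to 286 normalized counts in WT mice (median 206) and from 144 to 325 in *Nod2*-/- mice (median 225). Of the *Nod2*-/- mice, 2 lay above and 2 below all WT mice, and the log2 fold change was 0.07 ± 0.19 (SE, 95% interval -0.34 to 0.48, edgeR adjusted p = 0.855). *Mzb1*, a chaperone of the endoplasmic reticulum that assists assembly of IgM in B and plasma cells, had 6 to 13 counts in WT and 8 to 22 in *Nod2*-/- mice. Its normalized medians were 9.32 and 10.6, and its log2 fold change was 0.45 ± 0.27 (SE, edgeR adjusted p = 0.33).

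Of the other 8 members, 2 were correlated with *Jchain* from mouse to mouse past the threshold. Over the 13 mice, the level of *Jchain* on the log2 CPM scale, which corrects for library size, was correlated with *Igkc* (Pearson r = 0.90, permutation p = 3.0e-05, adjusted over 8 genes 0.000240; Spearman rho = 0.91, permutation p = 6.0e-05, adjusted 0.000480). The same held for *Jchain* and *Ighm* (r = 0.85, permutation p = 0.000120, adjusted 0.000480; rho = 0.88, permutation p = 0.000150, adjusted 0.000600). Without *Nod2*-/- replicates 5 and 4, the 2 mice farthest from the *Jchain* median, r was 0.83 for *Igkc* and 0.77 for *Ighm* (permutation adjusted p = 0.0203 and 0.0343).

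Within *Nod2*-/- mice both relations passed (*Igkc* r = 0.92, exact permutation adjusted p = 0.0198, *Ighm* r = 0.93, adjusted p = 0.0159, n = 7). Within the 6 WT mice neither passed (*Igkc* r = 0.88, exact permutation adjusted p = 0.172, *Ighm* r = 0.70, adjusted p = 0.286, n = 6). *Igha* did not pass over all mice (r = 0.34, rho = 0.07, permutation adjusted p = 0.351 and 0.820), as were *Ighg2b* (r = 0.05), *Iglc1* (r = 0.52), *Iglc2* (r = 0.45) and *Mzb1* (r = 0.40), with permutation adjusted p from 0.193 to 0.868. *Pigr* had r = 0.06 with *Jchain* over all mice (permutation adjusted p = 0.868), 0.89 within WT (exact permutation adjusted p = 0.122) and -0.55 within *Nod2*-/- mice (0.290), and no difference between the genotypes in these correlations was tested.

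**Figure D5:**
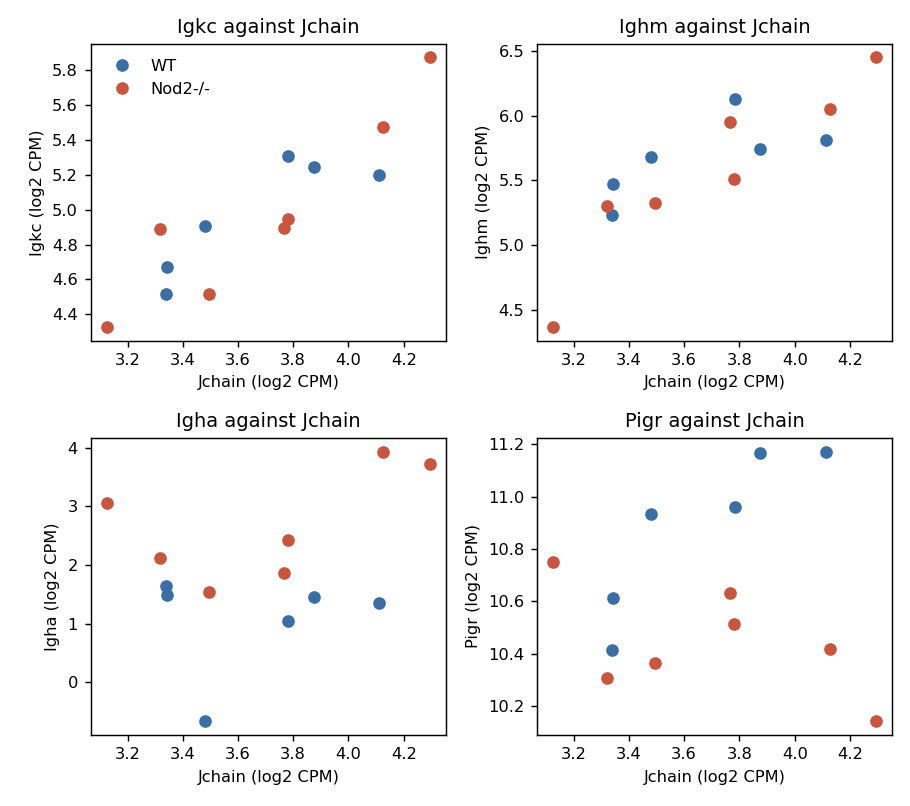
Log2 CPM of Igkc, Ighm, Igha and Pigr (y axes) against log2 CPM of Jchain (x axes) in 6 WT (blue) and 7 Nod2-/- (red) mice, 1 point per mouse. Igkc and Ighm rise with Jchain (r = 0.90 and 0.85), and Igha and Pigr do not (r = 0.34 and 0.06 over all mice).

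By a rule that ranked the tested genes outside the immunoglobulin loci, the genes with the pattern most like *Jchain* over the 13 mice were *Faap100* (r = 0.92), *Hddc3* (0.81), *Coa7* (0.80), *C630043F03Rik* (0.77) and *F7* (0.76). None of these 5 is a plasma cell gene of the lists used here. Their edgeR adjusted p-values between genotypes ran from 0.626 to 0.987, and the choice by likeness to *Jchain* favored differences as small as its own.

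*Pigr*, the transporter, was expressed at a different order of level from the antibody genes. Scaled to exon length, its mean was 7885 normalized counts per kilobase in WT and 5798 in *Nod2*-/- mice, placing it 130th of 13545 tested genes over all mice. On the same scale *Igkc* stood at 999 and 1050 (773rd), *Ighm* at 458 and 453 (1521st), *Jchain* at 84.5 and 88.7 (5229th) and *Igha* at 14.2 and 46.9 (8555th). *Iglc1* (47.3 and 54.8), *Iglc2* (36.9 and 25.6), *Mzb1* (7.78 and 10.7) and *Ighg2b* (2.84 and 8.67) were lower than *Jchain* on this scale.

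*Pigr* had 22605 to 38261 normalized counts in WT mice (median 32737) and 18722 to 28564 in *Nod2*-/- mice (median 22662). The means were 31735 ± 6349 (SD, n = 6) and 23337 ± 3319 (SD, n = 7), a ratio of 0.735. WT replicates 3 and 4 fell among the *Nod2*-/- mice, 3 *Nod2*-/- mice lay below all WT mice, and none lay above them all. The log2 fold change was -0.44 ± 0.15 (SE, 95% interval -0.76 to -0.13), with an unadjusted p of 0.00922 and an adjusted p of 0.106 by edgeR. The adjusted p was 0.0275 by DESeq2 and 0.0342 by edgeR without WT replicate 3, where 8.49% of all tested genes passed (5.12% higher and 3.37% lower). *Pigr* (ENSMUSG00000026417.13) lies on chromosome 1, 130826684 to 130852249, on the plus strand.

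*Pigr* and *Igha* had estimates of opposite sign, and the ratio of *Pigr* to *Igha* normalized counts ranged from 439 to 3263 in WT mice and from 85.7 to 460 in *Nod2*-/- mice. The top WT ratio was that of replicate 5, which had 9 *Igha* counts, and the next was 984 in WT replicate 6. The genes closest to *Pigr* over the 13 mice were *Gm30931* (r = 0.95), the carboxylesterase gene *Ces1b* (0.94), *Sar1b*, which acts in vesicle export from the endoplasmic reticulum (0.94), *Ccpg1os* (0.94) and *Eci1*, an enzyme of fatty acid oxidation (0.94). All 5 had negative log2 fold changes, from -1.35 to -0.41, with edgeR adjusted p from 0.0659 to 0.140. They were chosen for following *Pigr* over mice of both genotypes, so the choice itself favored the sign of *Pigr*, and their sign is no separate result.

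Other genes of the route were read from 7 lists with 114 genes in the table, 71 of them tested. Of the 71, none passed 5% FDR by edgeR, against the 1.16% of all genes. At an unadjusted p under 0.05, 19 were higher and 4 lower. By DESeq2, read over all 114 genes, 8 passed, all higher in *Nod2*-/- mice and with *Ighg1*, described above, among them. Over all tested genes these shares were 12.9% higher and 10.2% lower at the unadjusted p, and 3.81% higher and 3.45% lower by DESeq2. Positive log2 fold changes were found for 52 of the 71 genes and for 52.3% of all tested genes. The median log2 fold change of the 71 genes was 0.16, beside 0.02 for all tested genes.

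The plasma cell list had 15 tested genes. At an unadjusted p under 0.05, 1 was higher and 2 were lower, beside 12.9% and 10.2% of all tested genes. The list had a median log2 fold change of 0.00. Its most counted genes were *Xbp1*, the transcription factor of the secretory program (log2 fold change -0.14, edgeR adjusted p = 0.517), *Sdc1* (0.21, 0.347), *Txndc5* (-0.26, 0.212) and *Edem1* (-0.07, 0.658), all of which hepatocytes also express. *Tnfrsf17*, which encodes the plasma cell survival receptor BCMA, had at most 1 count in any mouse. The B cell list had 5 tested genes with a median of 0.60. Of these, 2 were higher at an unadjusted p under 0.05, beside 12.9% of all tested genes. *Blnk*, an adaptor of B cell receptor signaling, had 106 ± 42.5 (SD, n = 6) and 203 ± 82.0 (SD, n = 7) normalized counts (edgeR adjusted p = 0.0910, DESeq2 0.0292). *Bach2*, *Cd72* and *Bank1* had log2 fold changes of -0.21, 0.50 and 0.60 (edgeR adjusted p = 0.729, 0.354 and 0.217).

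The list of genes for IgA switching, survival and homing had 11 tested genes, 10 with positive log2 fold changes (52.3% of all tested genes), 4 of these with an unadjusted p under 0.05 (12.9% of all), and a median of 0.67. Its most counted genes *Cxcl12*, *Ltbr*, *Tgfbr2* and *Vcam1* had log2 fold changes of 0.14, 0.16, 0.67 and 0.27 (edgeR adjusted p from 0.300 to 0.591). Chosen after their values were seen, *Tnfsf13*, which encodes the plasma cell survival factor APRIL, and *Tgfb1*, the cytokine of IgA switching, had log2 fold changes of 1.70 and 0.52 (edgeR adjusted p = 0.103 and 0.0889, DESeq2 0.0250 and 0.0408). *Ccl28*, a mucosal chemokine that attracts IgA-secreting cells, was named after its values were seen too. It had 3 to 8 counts in WT mice and 0 or 1 in each *Nod2*-/- mouse, too few for edgeR's filter, and the genotypes did not overlap.

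The 14 tested genes of transcytosis and IgA handling had a median log2 fold change of 0.04. At an unadjusted p under 0.05, 3 were higher and 1 lower, beside 12.9% and 10.2% of all tested genes. By DESeq2 *Rab3d*, a GTPase of secretory vesicles, passed (log2 fold change 0.96 by edgeR, edgeR adjusted p = 0.103, DESeq2 0.0358), and it was named because it passed. *Egfr*, the paired *Asgr1* and *Asgr2* of the asialoglycoprotein receptor, by which hepatocytes take up desialylated glycoproteins, and *B4galt1* had log2 fold changes of 0.07, -0.03, -0.19 and 0.05 (edgeR adjusted p from 0.345 to 0.907). The 8 tested Fc receptor and IgG handling genes had a median of 0.24. Of these, 1 was higher at an unadjusted p under 0.05, beside 12.9% of all tested genes. *Fcgrt*, the neonatal Fc receptor that recycles IgG, its partner *B2m*, *Fcgr2b* and *Trim21* had log2 fold changes of -0.08, 0.01, 0.00 and 0.07 (edgeR adjusted p from 0.736 to 0.999).

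Among 17 tested inducers and regulators of *Pigr*, which include NF-kB, interferon and cytokine signaling genes, 15 had positive log2 fold changes, beside 52.3% of all tested genes, with a median of 0.22. At an unadjusted p under 0.05, 7 were higher and 1 lower, beside 12.9% and 10.2% of all tested genes. *Stat6*, *Rela*, *Usf2* and *Il4ra* had log2 fold changes of 0.08, 0.22, 0.02 and 0.24 (edgeR adjusted p from 0.253 to 0.906). By DESeq2 *Relb*, *Nfkb2* and *Usf1* passed, with log2 fold changes by edgeR of 1.16, 0.60 and 0.36 (edgeR adjusted p = 0.0878, 0.0782 and 0.0621), and these were named because they passed.

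Marker lists of cells that could bring antibody transcripts or change the transporter were read beside these results. Hepatocyte markers summed to 1572630 to 2157200 normalized counts in WT and 1615010 to 3077080 in *Nod2*-/- mice, and 0 of 9 tested passed by edgeR. The sum is mostly *Alb*, with a log2 fold change of 0.21, while the 9 genes had a median of -0.26. At an unadjusted p under 0.05, 2 were lower in *Nod2*-/- mice, beside 10.2% of all tested genes, and 1 was higher, beside 12.9%. The lower genes were *Cps1* of the urea cycle and the cytochrome gene *Cyp2e1* (log2 fold change -0.38 and -0.94). By DESeq2 *Cyp2e1* passed. *Cps1* and *Cyp2e1* were named after their values were seen. Cholangiocyte markers, which mark the bile duct cells, summed to 1320 to 5845 and 2969 to 8923, and 1 of 10 passed, *Sox9* (log2 fold change 1.29 ± 0.25, SE, edgeR adjusted p = 0.0324). T cell markers summed to 87.6 to 118 and 69.4 to 236, and lymphoid organ stroma markers to 115 to 382 and 208 to 391. In the latter list *Ccl21a*, *Madcam1* and *Glycam1*, which mark lymph node vessels and stroma, had at most 3 counts in any mouse. *Cxcl13* of that list, named after its values were seen, had 1 to 44 counts in WT and 2 to 59 in *Nod2*-/- mice. Its log2 fold change was 1.70 (edgeR adjusted p = 0.194). Intestinal epithelium markers summed to 3122 to 4801 and 2502 to 4679, mostly *Fabp2* (means 3508 and 3155). In this list *Cdx1*, *Cdx2*, *Muc2* and *Sis* had no more than 3 counts in any mouse. *Krt20* and *Cdh17* of the same list, named after their values were seen, reached 313 and 98 counts in WT mice. In *Nod2*-/- mice they reached 298 and 58. Pancreas acinar markers summed to 589 to 1330 and 222 to 937, with 9 of 10 genes at no more than 3 counts. None of the 2 T cell, 2 lymphoid organ stroma, 4 intestinal and 1 acinar markers tested passed 5% FDR by edgeR, nor any marker of these lists by DESeq2. At an unadjusted p under 0.05, 2 stroma markers were higher and 1 acinar marker lower in *Nod2*-/- mice, beside 12.9% and 10.2% of all tested genes. The part of these markers in the results for *Igha* and *Pigr* was not tested.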

How the data were processed

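Liver RNA of 13 mice was sequenced as paired reads of 43 bases from libraries that the labels call strand-specific and made from polyA RNA. The authors trimmed reads (Trimmomatic 0.33), mapped them (TopHat2 2.1.1) to GRCm38 and deposited raw counts per gene and mouse. How reads were assigned to genes is not given in the sources used here. Reads of BALB/c immunoglobulin alleles that differ from the reference may be lost. A row without a gene identifier was left out. Genes were matched to GENCODE names by identifier (53360 of 53465).

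The main test was edgeR's quasi-likelihood F test on the whole table (edgeR 4.0.16, R 4.3.3, filterByExpr, TMM, glmQLFit and glmQLFTest without covariates). Alternatives were DESeq2 1.42.0 (the study's tool), limma 3.58.1 voomWithQualityWeights, RLE normalization, no filter, the replicate number as block, loci summed, other denominators for the shares, Spearman in place of Pearson correlation, and each mouse left out. Leaving out 3 WT mice was added after the data were seen. The fits were tested on simulated data. Shares were compared by exact permutation, and correlations of log2 CPM (0.5 added to each count) by 100000 permutations, or exactly within genotypes. A gene with at most 3 counts in every mouse was taken as not detected.

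The members and lists were chosen with earlier results of these data known. Named genes are the members, other constant genes, list genes past 5% FDR or the 4 most counted of a pathway list, the 5 most counted variable segments, and the 5 genes most correlated with *Jchain* and with *Pigr*. Replicates are separate mice, and no 2 libraries of a genotype agreed within sampling noise (lowest chi-square per degree of freedom 11.6 over 36 pairs). The result for 1 gene of the lists is not reported here.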

Additional observations from a re-analysis of the deposited data

Results flagged for a closer look

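Gaps between the most extreme mouse and its neighbor were compared with Dixon's 95% critical values in 34 groups of values, a rule by which chance marks about 1 group in 20. *Nod2*-/- replicate 7 stood apart for *Ighd*, with 22.5 normalized counts beside 10.3 in the next mouse, and for *Ighg2c*, with 13.7 beside 5.69. WT replicate 3 stood apart for the IgG share of heavy-chain constant counts, with 5.17% beside 2.16% in the next WT mouse.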

How the results depend on the processing

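The IgA share was higher in *Nod2*-/- mice in 16 of 16 alternatives, with differences of 5.71 to 9.03 percentage points. It stayed past the threshold in 12 of the 15 with a test, after adjustment over the 2 shares. It did not without WT replicate 5 or 6, in a range of 5.71 to 8.74 points over single mice left out, nor without the 3 WT mice highest in lung markers (9.03 points). The lambda share (-2.74 to -0.25 points) did not pass in the 14 alternatives with a test. *Igkc* and *Ighm*, and no other member, were correlated with *Jchain* past the threshold in all 15 alternatives. *Igha* had positive values in all 19 alternatives (1.33 to 2.06), and *Pigr* negative ones in all 20 (-0.57 to -0.38). *Igha* passed 5% FDR by DESeq2 (1.70), and *Pigr* did so too (-0.46). Over fits without 1 mouse, *Igha* ranged from 1.45 to 1.86 and *Pigr* from -0.54 to -0.38. *Igha* passed without WT replicate 3, *Nod2*-/- replicate 2 or replicate 3, and *Pigr* without WT replicate 3. *Ighg2b* fell under the filter in 5 of 13 such fits.

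Signs of estimates near 0 turned. With loci summed, the values that stand for *Ighm* and *Iglc1* were 0.18 and -0.27. *Igkc* was -0.0657 by voom, -0.0743 with the replicate block and -0.0923 without the 3 WT mice highest in lung markers, and *Jchain* was -0.0275 with the block. Without 1 mouse, *Ighm* ranged from -0.20 to 0.12, *Igkc* from -0.12 to 0.17 and *Jchain* from -0.0442 to 0.17.

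Genes past 5% FDR in the whole table, 88 higher and 69 lower, became 605 and 549 by DESeq2, 519 and 324 by voom, 17 and 18 with the replicate block, 11 and 9 without the 3 lung-marker-high WT mice, and 20 to 697 and 20 to 459 without 1 mouse, the highest without WT replicate 3. Members called became 1 higher and 1 lower by DESeq2 and 0 to 1 each way without 1 mouse. Immunoglobulin segments called became 2 higher and 1 lower by DESeq2 and 0 to 1 higher without 1 mouse. Pathway list genes called became 8 higher by DESeq2, 6 higher by voom, 1 lower (*Ccl28*) without a filter and 0 to 9 higher without 1 mouse. The causes were not tested.

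Equal replicate numbers do not pair the mice. Of 6 numbers shared by WT and *Nod2*-/- mice, 1 had a correlation of deviations above 0.1, and 0 WT mice correlated best with their own number. Under the replicate block *Igha* was 1.33 and no member passed. Depth limits *Mzb1*, the IgG genes and the single variable segments, which had few counts per mouse.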
